A study of Danio rerio with 12 samples.

Results

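The sarcomere genes of zebrafish muscle were examined in whole larvae that lacked one or both pannexin 1 genes. Members were taken by symbol, as every gene whose name marks it as a myosin heavy chain of fast, slow or cardiac muscle, a myosin light chain, a troponin, a tropomyosin, an alpha-actinin, a myosin-binding protein C or nebulin. This rule found 79 of the 31261 genes counted. It also took in genes that begin with the same letters but are not part of the sarcomere. Of the 79 genes, 24 were assigned to fast muscle, 6 to slow muscle and 8 to the heart. A further 13 belong to slow or cardiac families whose copies could not be told apart by name, 5 are used in several muscle types and 5 stayed unassigned. The remaining 8 are non-muscle isoforms and 10 are regulatory genes, mostly myosin light chain kinases. Titin has a symbol that the rule does not match, so it is not a member. Symbols in capitals are those of the human relative, and 29 members share their symbol with another member, so their identifiers are given.

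The 4 lines were compared at 6 days post fertilization (dpf), with 3 libraries each. TL controls are the Tupfel long fin wild type, and the *panx1a*-/-, *panx1b*-/- and double knock-out lines were made with TALEN nucleases. All larvae were kept in light without treatment, and each library is the RNA of a pool of whole larvae. Each genotype is a single line, and the *panx1b*-/- line goes back to a deletion that shifts the reading frame, so line and genotype cannot be told apart. The labels do not say whether the pools of a line came from separate clutches, and the *p*-values measure the spread between these pools.

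The sarcomere is the contractile unit of striated muscle. Myosin heavy chains form the thick filament and carry the motor, with an essential and a regulatory light chain bound to each. Actin, tropomyosin and the troponin complex form the thin filament, in which troponin C binds calcium, troponin I inhibits and troponin T anchors the complex to tropomyosin. Alpha-actinin cross-links thin filaments at the Z-disc. In the larval trunk, fast fibres make up the bulk of the muscle and slow fibres lie at the surface, and each type uses its own copies of most of these proteins.

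Libraries held 20581029 to 29259122 counts, and the members took 2.03% to 3.13% of them. All 79 members had at least 1 count in all 12 libraries. The lowest share was in *panx1b*-/- replicate 3, in which all 24 fast and all 6 slow genes had the lowest level of the 3 libraries of that line. TL replicate 2 was the lowest TL library for 23 of 24 fast and 6 of 6 slow genes. Both libraries were kept. The files pair 2 identifiers with pannexin 1 without saying which is *panx1a*. ENSDARG00000025285 had 11.7 to 14.4 CPM (counts scaled to the size of the library) in TL, 3.85 to 4.80 in *panx1a*-/-, 9.10 to 9.84 in *panx1b*-/- and 4.08 to 4.35 in the double knock-out. ENSDARG00000014910 had 4.69 to 6.93 CPM in TL and 5.83 to 7.10 in *panx1b*-/-, while the *panx1a*-/- libraries held 7.52 to 8.83 and those of the double knock-out 3.65 to 4.75. Neither was lowest in *panx1b*-/-, so the labels of that line were not checked by a loss of transcript.

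Taken by class, the summed levels of the 6 slow and of the 8 cardiac genes lay below TL in *panx1b*-/- and the double knock-out, while those of the fast genes and of the 13 slow or cardiac genes overlapped. The summed level of the 24 fast genes was 24030, 19000 and 27400 CPM in TL replicates 1 to 3, 20300, 23750 and 24610 in *panx1a*-/-, 21930, 24890 and 15270 in *panx1b*-/-, and 20400, 20820 and 18860 in the double knock-out. These ranges overlapped between all lines. The 6 slow genes summed to 542.7, 435.1 and 559.8 CPM in TL and to 414.4, 439.2 and 505.1 in *panx1a*-/-. They reached 381.5, 387.3 and 278.7 in *panx1b*-/- and 343.7, 390.0 and 341.7 in the double knock-out, below every TL library. Most of the slow sum is *smyhc1*. Without it the other 5 slow genes summed to 130.7 to 169.3 CPM in TL, 112.8 to 143.6 in *panx1b*-/- and 120.7 to 143.7 in the double knock-out, which overlapped TL. The 13 slow or cardiac genes summed to 461.4 to 592.1 CPM in TL, 406.0 to 540.2 in *panx1b*-/- and 420.2 to 475.3 in the double knock-out, also with overlap. The 8 cardiac genes summed to 162.4 to 199.5 CPM in TL, 164.0 to 173.2 in *panx1a*-/-, 138.5 to 149.5 in *panx1b*-/- and 136.2 to 148.4 in the double knock-out, again without overlap with TL for the last 2 lines. The largest parts of the cardiac sum were *tpm4a* and MYBPC3, with means of 66.0 and 47.1 CPM in TL. Each of these genes by itself overlapped TL in *panx1b*-/- and in the double knock-out. Per 100 CPM of fast genes within the same library, slow genes took 2.04 to 2.29 in TL, 1.85 to 2.05 in *panx1a*-/-, 1.56 to 1.83 in *panx1b*-/- and 1.69 to 1.87 in the double knock-out. Cardiac genes took 0.728 to 0.855 in TL, 0.691 to 0.820 in *panx1a*-/-, 0.581 to 0.907 in *panx1b*-/- and 0.703 to 0.722 in the double knock-out. On this scale the cardiac genes of *panx1b*-/- overlapped TL, and its replicate 3 lay above every TL library. In whole larvae, fewer fibres of a type and less RNA per fibre cannot be told apart. These sums were not tested, since an exact two-sided permutation test of 3 against 3 libraries cannot give less than 0.1.

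**Figure D1:**
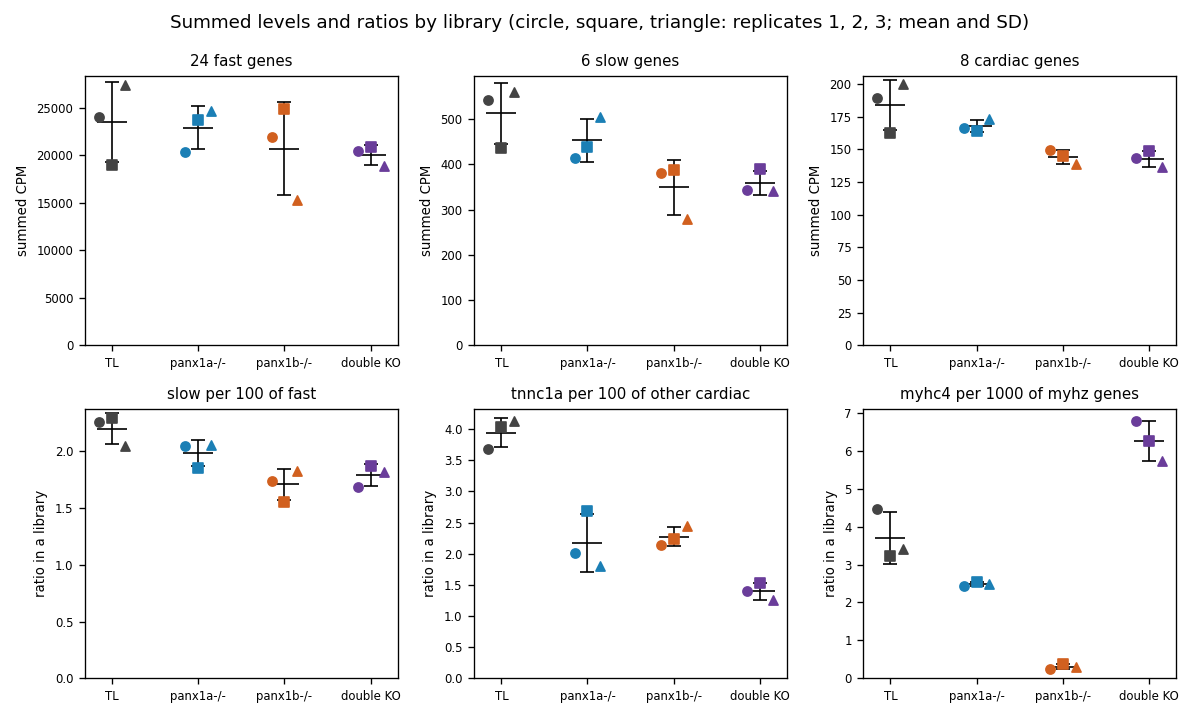
Summed CPM of the fast, slow and cardiac genes (upper row) and ratios formed within each library (lower row) for the 4 lines. Symbols are the 3 libraries and bars the mean and SD. The 3 *panx1b*-/- libraries lie at 138.5 to 149.5 CPM for cardiac genes, below the lowest TL library at 162.4, while the fast sums overlap.

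Single genes were compared with edgeR's quasi-likelihood test. Up- or downregulated refers to genes past 2 cut-offs, an adjusted *p*-value (Benjamini-Hochberg) below 0.05 and an unadjusted one below 0.001. In *panx1a*-/- larvae 1 of 79 members was downregulated, against 2.89% of all genes tested, and 0 were upregulated, against 2.29%. In *panx1b*-/- larvae 11 members were downregulated, where the background was 3.16%, and 0 were upregulated, where it was 2.80%. In the double knock-out 7 were downregulated and 0 upregulated, against 5.28% and 2.81% of all genes. Some of these calls were in the 18 non-muscle and regulatory genes, 4 in *panx1b*-/- and 3 in the double knock-out. Of the 61 muscle members, 7 were downregulated in *panx1b*-/- and 4 in the double knock-out. At an unadjusted *p*-value under 0.05, 3 members were higher in *panx1a*-/-, 1 in *panx1b*-/- and 1 in the double knock-out, and 10, 26 and 29 were lower. Of all genes tested, 5875 of 24987, 6266 of 24860 and 7994 of 24896 passed this level in either direction. Of these, 3113, 3178 and 4484 were lower. DESeq2 called 0, 0 and 1 member upregulated in these comparisons. The 3 comparisons share the TL libraries. The 11 calls in *panx1b*-/- became 6 without TL replicate 1, 4 without TL replicate 3, 5 without *panx1b*-/- replicate 2, 6 without *panx1b*-/- replicate 3 and 15 without TL replicate 2. The 7 calls in the double knock-out became 15 without TL replicate 2 and 4 without double knock-out replicate 3. The 1 call in *panx1a*-/- became 0 without TL replicate 3, *panx1a*-/- replicate 1 or *panx1a*-/- replicate 3, 2 without *panx1a*-/- replicate 2, and 3 without TL replicate 2. Leaving out TL replicate 2 added *myhc4* (−0.77) and *myh7bb* (−0.45) to the calls of *panx1a*-/-. In *panx1b*-/- it added *smyhc2* (−0.59), *myh7bb* (−0.54), MYLK ENSDARG00000004753 (−0.54) and *mylk5* (−0.59). To the calls of the double knock-out it added *myhz1.1* (−0.80), TNNT3 ENSDARG00000030270 (−0.53), *smyhc2* (−0.56), *myh7bb* (−0.62), MYL2 ENSDARG00000104722 (−0.63), TNNI1 ENSDARG00000052708 (−0.59), *tnnt2e* (−0.65) and MYLK ENSDARG00000004753 (−0.56). These values are log2 fold changes without that library.

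All 3 libraries of a line lay below all 3 TL libraries for 6 members in *panx1a*-/- (14.1% of all genes tested), for 21 in *panx1b*-/- (14.9%) and for 24 in the double knock-out (19.4%). As a share of the 79 members these are 7.59%, 26.6% and 30.4%. The median log2 fold change of the members was −0.01 in *panx1a*-/-, −0.21 in *panx1b*-/- and −0.22 in the double knock-out, while the median of all genes lay within 0.011 of 0. Among the cardiac genes all 8 had a log2 fold change below 0 in *panx1b*-/- and all 8 in the double knock-out, with medians of −0.40 and −0.37. For the 24 fast genes the medians were −0.15 and −0.14. Of the 10 regulatory genes, 10 had a value below 0 in *panx1b*-/- and 8 in the double knock-out. Values below 0 were held by 70.9% of all members and 48.5% of all genes tested in *panx1b*-/-. In the double knock-out these shares were 81.0% and 49.9%. Of the 8 non-muscle genes 2 were below 0 in *panx1b*-/- and 7 in the double knock-out, and of the 5 unassigned genes 1 and 5.

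**Figure D2:**
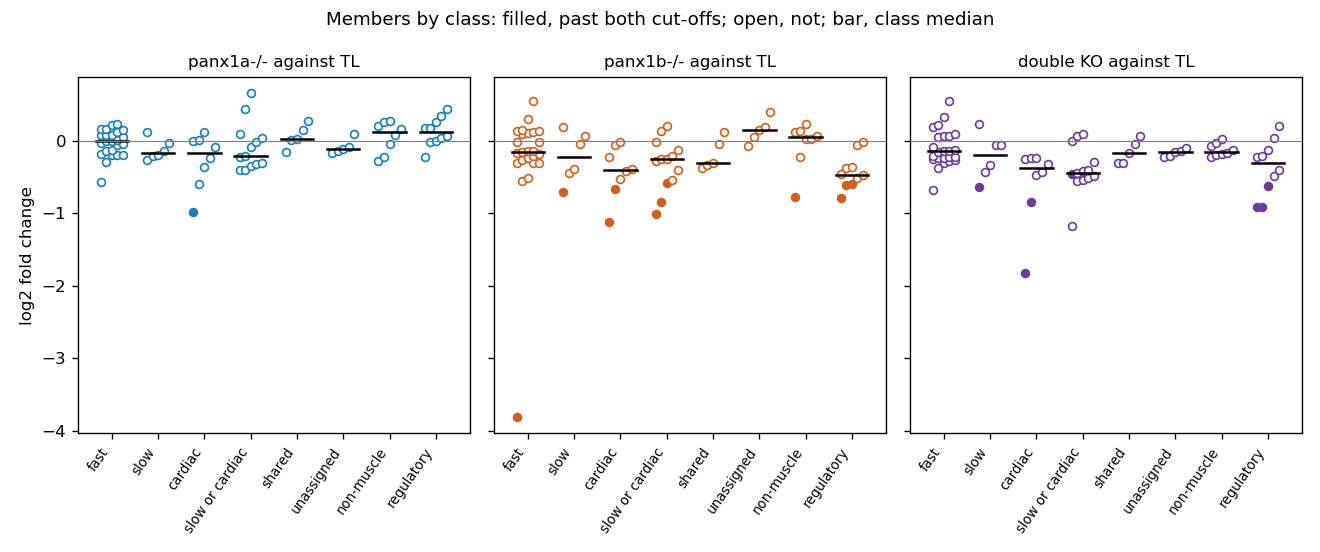
Log2 fold change of each of the 79 members against TL (vertical axis) by class, for *panx1a*-/-, *panx1b*-/- and the double knock-out. Filled points are past both cut-offs and black bars are class medians. The lowest point is *myhc4* in *panx1b*-/- at −3.81, and *tnnc1a* is the lowest cardiac gene in each panel.

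Of the fast genes, *myhc4* (ENSDARG00000035438), a fast myosin heavy chain, was the 1 that passed the cut-offs against TL in the edgeR fits described above, with all libraries kept. *myhc4* had 21.6, 12.8 and 21.2 CPM in TL and 11.6, 10.9 and 15.2 in *panx1a*-/-. It fell to 1.18, 1.83 and 0.915 CPM in *panx1b*-/-, and reached 21.6, 27.3 and 20.8 in the double knock-out. In CPM the *panx1b*-/- libraries lay below all others, at 0.0712 of the TL level in the fit. The log2 fold change was −3.81 (SE 0.26, adjusted *p*-value 8.62e-06, edgeR), and the call held without each library in turn. In the double knock-out *myhc4* differed from TL by 0.33 (SE 0.18, adjusted *p*-value 0.24).

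In the edgeR fits with all libraries kept, the heavy chain genes that took most fast myosin counts did not pass the cut-offs in any comparison with TL. *myhz1.1* (ENSDARG00000067990) had 2209, 1976 and 3188 CPM in TL, 2433, 2226 and 3152 in *panx1a*-/-, 2582, 2436 and 1516 in *panx1b*-/- and 1314, 1806 and 1488 in the double knock-out. The double knock-out libraries were below all TL libraries, with a log2 fold change of −0.67 (SE 0.18, adjusted *p*-value 0.0303) that missed the second cut-off. Both cut-offs were passed without TL replicate 2 and, with all libraries kept, in the DESeq2 test (−0.66, adjusted *p*-value 0.00159). *myhz1.2*, *myhz1.3* and *myhz2* are further copies, and their log2 fold changes in *panx1b*-/- were −0.15, −0.20 and −0.51. Against the summed *myhz* genes of the same library, *myhc4* took 3.22 to 4.48 per 1000 CPM in TL, 2.42 to 2.54 in *panx1a*-/-, 0.237 to 0.377 in *panx1b*-/- and 5.72 to 6.77 in the double knock-out. On this scale no knock-out line overlapped TL, with both single lines below it and the double knock-out above. Fast heavy chain copies are near-identical, and how the counting shared reads between them is not given in the sources used here, so the level of each single copy is uncertain.

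The slow heavy chain *smyhc1* (ENSDARG00000099959) was lower in both lines that lack *panx1b*. It had 376.6, 304.4 and 390.5 CPM in TL and 287.7, 294.7 and 358.5 in *panx1a*-/-. It had 243.8, 243.6 and 165.9 CPM in *panx1b*-/- and 223.0, 246.3 and 217.8 in the double knock-out. Neither of these lines overlapped TL. The log2 fold change was −0.71 (SE 0.15, adjusted *p*-value 0.0133) in *panx1b*-/- and −0.64 (SE 0.11, adjusted *p*-value 0.00295) in the double knock-out. In *panx1a*-/- it was −0.19 (SE 0.13, adjusted *p*-value 0.412). The *panx1b*-/- call was lost without TL replicate 1 or 3 or *panx1b*-/- replicate 1 or 2, and the double knock-out call without its replicate 3. Over all alternatives the values lay between −0.81 and −0.55 and between −0.73 and −0.56. *smyhc2* (ENSDARG00000103969), a further slow heavy chain, had 62.9 to 88.0 CPM in TL and 48.3 to 65.8 in *panx1b*-/-, and its log2 fold change of −0.45 did not pass the test (adjusted *p*-value 0.0696) unless TL replicate 2 was left out.

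The heavy chains of the slow or cardiac families fell in *panx1b*-/- for 2 genes. MYH7 (ENSDARG00000079782) had 33.8, 22.6 and 30.1 CPM in TL, 27.8, 24.6 and 33.4 in *panx1a*-/-, 17.9, 17.7 and 12.2 in *panx1b*-/- and 16.3, 26.1 and 22.8 in the double knock-out. The *panx1b*-/- libraries were below all TL libraries, with a log2 fold change of −0.85 (SE 0.17, adjusted *p*-value 0.00865). *myh7ba* (ENSDARG00000076075) had 30.3, 25.3 and 28.4 CPM in TL and 20.5, 16.4 and 18.6 in *panx1b*-/-, a log2 fold change of −0.59 (SE 0.11, adjusted *p*-value 0.00756). In *panx1a*-/- and the double knock-out *myh7ba* had 21.9 to 23.8 and 21.4 to 24.8 CPM, also below TL, but did not pass. Both *panx1b*-/- calls were lost without TL replicate 1 or 3 or *panx1b*-/- replicate 2 or 3, with values of −0.998 to −0.702 for MYH7 and −0.68 to −0.51 for *myh7ba* over the alternatives. Of the 2 genes named MYH6, ENSDARG00000079564 had a log2 fold change of −0.27 and ENSDARG00000114031 of −0.25 in *panx1b*-/-, and neither passed. The atrial heavy chain *myh6* (ENSDARG00000090637) had 14.8 to 20.7 CPM in TL and 12.02 to 14.3 in *panx1b*-/-, with a log2 fold change of −0.39 (adjusted *p*-value 0.108).

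**Figure D3:**
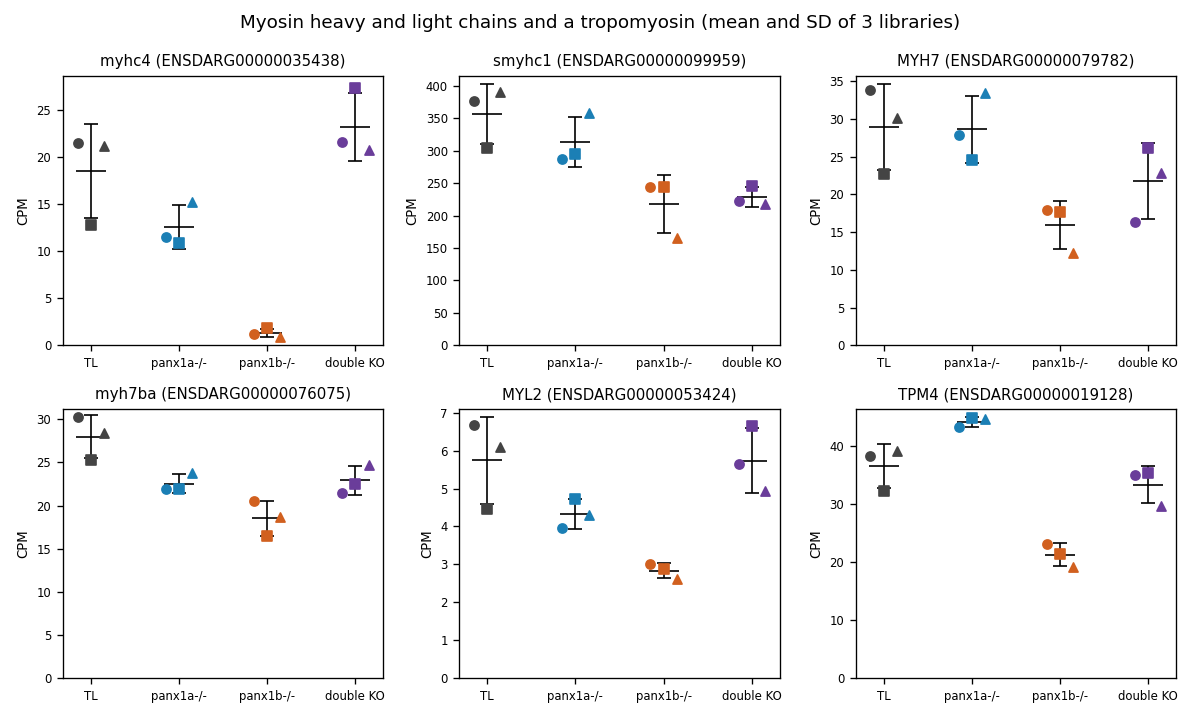
CPM of 6 members in the 12 libraries, with the mean and SD of each line. *myhc4*, MYL2 and TPM4 are lowest in the 3 *panx1b*-/- libraries, while *smyhc1* is at 165.9 to 243.8 CPM in *panx1b*-/- and 217.8 to 246.3 in the double knock-out, below the TL libraries at 304.4 to 390.5.

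Light chains of the heart were lower in different lines. MYL7 (ENSDARG00000019096), the regulatory light chain widely used to mark the zebrafish heart, had 15.6, 12.3 and 13.0 CPM in TL, 9.68, 12.03 and 10.1 in *panx1a*-/-, 8.74, 8.99 and 7.80 in *panx1b*-/- and 10.4, 9.14 and 9.94 in the double knock-out. All 3 knock-out lines lay below TL. The cut-offs were passed in *panx1b*-/- (log2 fold change −0.67, SE 0.13, adjusted *p*-value 0.00802), but not in *panx1a*-/- (−0.36, adjusted *p*-value 0.132) or the double knock-out (−0.47, adjusted *p*-value 0.0214). The call held without TL replicate 2 and was lost without any other single library of the 2 lines, where the adjusted *p*-value reached at most 0.0310. *myl4* (ENSDARG00000011519), an essential light chain of the heart, had 17.2, 15.1 and 13.4 CPM in TL, 17.2, 15.2 and 12.4 in *panx1b*-/-, 8.79, 11.9 and 9.40 in *panx1a*-/- and 9.01, 8.03 and 8.43 in the double knock-out. The 2 lines that lack *panx1a* were below TL and *panx1b*-/- was not. The log2 fold change was −0.84 in the double knock-out (SE 0.12, adjusted *p*-value 0.00132), held without each library, and −0.60 in *panx1a*-/- (SE 0.14, adjusted *p*-value 0.0270), which missed the second cut-off.

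MYL2 (ENSDARG00000053424), a regulatory light chain of slow and ventricular muscle in mammals, had 6.66, 4.46 and 6.09 CPM in TL and 3.95, 4.73 and 4.31 in *panx1a*-/-. It had 3.00, 2.89 and 2.61 CPM in *panx1b*-/- and 5.64, 6.64 and 4.92 in the double knock-out. The *panx1b*-/- libraries were the lowest, with a log2 fold change of −1.01 (SE 0.19, adjusted *p*-value 0.00628), while the double knock-out was at the TL level (0.00, SE 0.18). The *panx1b*-/- call was lost without TL replicate 1 or 3 or *panx1b*-/- replicate 2 or 3, with values between −1.16 and −0.90 over the alternatives. The other copy, ENSDARG00000104722, had a log2 fold change of −0.02 in *panx1b*-/- and −0.56 in the double knock-out (adjusted *p*-value 0.0147). The second value missed the second cut-off, and passed both with no minimum count or without TL replicate 2. The fast light chains took most light chain counts and did not pass in any line. MYL11 (ENSDARG00000053254), the fast regulatory light chain, had 2510 to 3606 CPM in TL and 1892 to 3852 in *panx1b*-/-. MYL1 (ENSDARG00000017441), the fast essential light chain, had 2382 to 3366 CPM in TL and 1934 to 3195 in *panx1b*-/-. The second copies of MYL11 (ENSDARG00000002589) and MYL1 (ENSDARG00000014196) had log2 fold changes of −0.01 and 0.14 in *panx1b*-/-. In the double knock-out this MYL11 copy had 559.3 to 646.3 CPM, below every TL library at 664.9 to 780.4, while the MYL1 copy overlapped TL.

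Among the troponins, *tnnc1a* (ENSDARG00000011400), the troponin C of the zebrafish heart, was the 1 member downregulated in all 3 knock-out lines. It had 6.71, 6.29 and 7.90 CPM in TL, 3.29, 4.30 and 3.06 in *panx1a*-/-, 3.14, 3.16 and 3.31 in *panx1b*-/- and 1.99, 2.23 and 1.69 in the double knock-out. No library of a knock-out line reached the TL range, and the double knock-out lay below both single lines. The log2 fold change was −0.97 in *panx1a*-/- (SE 0.18, adjusted *p*-value 0.00617), −1.11 in *panx1b*-/- (SE 0.16, adjusted *p*-value 0.00132) and −1.82 in the double knock-out (SE 0.17, adjusted *p*-value 0.000114). The *panx1b*-/- and double knock-out calls held without each library. The *panx1a*-/- call was lost without TL replicate 3, *panx1a*-/- replicate 1 or *panx1a*-/- replicate 3, with values between −1.14 and −0.87 over the alternatives. The interaction of both genotypes was 0.27 (SE 0.25, adjusted *p*-value 0.563), so a departure from the sum of the single effects was not detectable. Per 100 CPM of the other cardiac genes in the same library, *tnnc1a* took 3.68 to 4.12 in TL, 1.80 to 2.69 in *panx1a*-/-, 2.15 to 2.45 in *panx1b*-/- and 1.25 to 1.52 in the double knock-out.

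TNNC1 (ENSDARG00000037539), a further slow or cardiac troponin C, had 87.9, 75.4 and 94.2 CPM in TL, 74.1, 83.2 and 86.0 in *panx1a*-/-, 91.8, 117.4 and 85.2 in *panx1b*-/- and 61.6, 67.1 and 57.8 in the double knock-out. Only the double knock-out was below TL, with a log2 fold change of −0.46 (SE 0.10, adjusted *p*-value 0.00981). This call was kept without TL replicate 2 and lost without each of the other 5 libraries, and in a fit of all 12 libraries. The troponin T gene *tnnt2e* (ENSDARG00000045822) had 102.1 to 141.9 CPM in TL and 74.4 to 95.0 in the double knock-out, a log2 fold change of −0.54 (adjusted *p*-value 0.0143) that missed the second cut-off. It passed both with library size alone, the DESeq2 test, no minimum count, the replicate block or all 12 libraries in one fit, and without TL replicate 2. *tnnt2d* (ENSDARG00000002988) had log2 fold changes of 0.04, 0.13 and 0.06 in *panx1a*-/-, *panx1b*-/- and the double knock-out. The fast troponin T gene TNNT3 (ENSDARG00000068457), which took the most counts of all members, had 4910 to 7112 CPM in TL, 4817 to 6137 in *panx1a*-/-, 3810 to 5858 in *panx1b*-/- and 4819 to 5464 in the double knock-out. The slow troponin T gene TNNT1 (ENSDARG00000037954) had 16.0 to 18.3 CPM in TL and 18.3 to 20.9 in *panx1b*-/-, where all 3 libraries were above TL, with a log2 fold change of 0.19 (adjusted *p*-value 0.304).

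**Figure D4:**
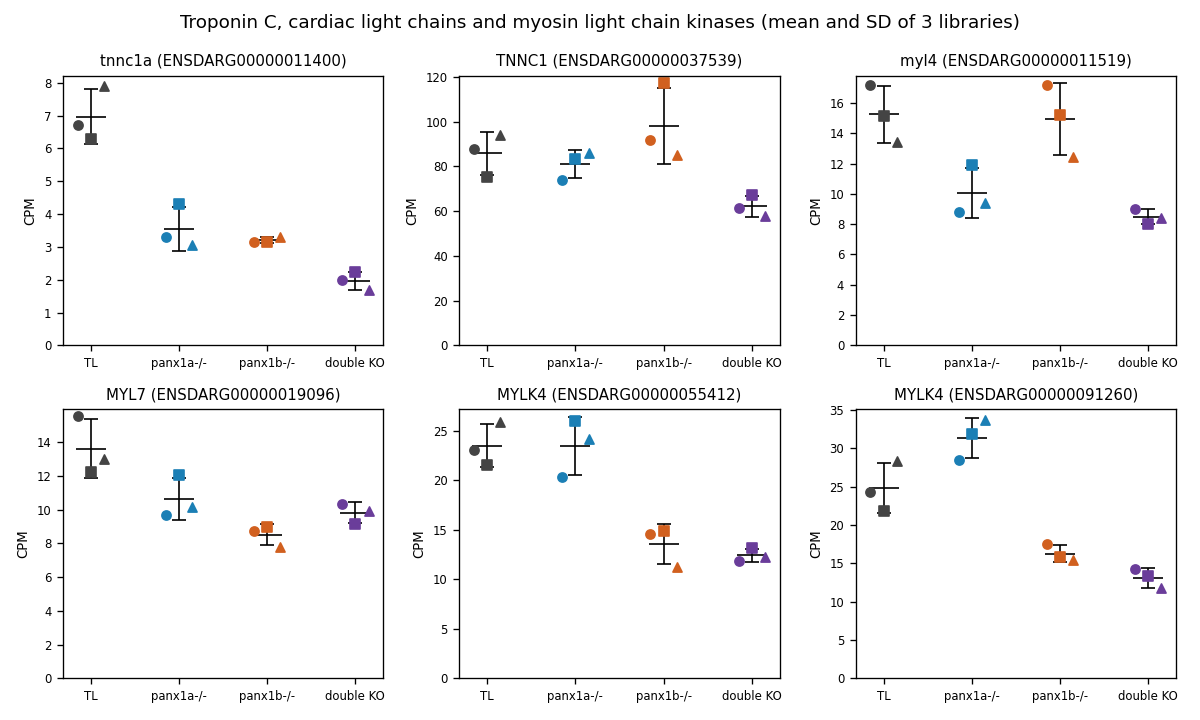
CPM of *tnnc1a*, TNNC1, *myl4*, MYL7 and both MYLK4 genes in the 12 libraries, with the mean and SD of each line. *tnnc1a* lies at 6.29 to 7.90 CPM in TL and at 1.69 to 2.23 in the double knock-out, and both MYLK4 genes are lower in *panx1b*-/- and the double knock-out than in TL and *panx1a*-/-.

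TPM4 (ENSDARG00000019128), which in mammals is mainly a tropomyosin of the cytoskeleton, had 38.4, 32.2 and 39.1 CPM in TL and 43.2, 44.8 and 44.6 in *panx1a*-/-. It had 23.2, 21.4 and 19.3 CPM in *panx1b*-/- and 35.1, 35.4 and 29.6 in the double knock-out. Against TL it passed the cut-offs only in *panx1b*-/- (log2 fold change −0.77, SE 0.11, adjusted *p*-value 0.00127), and the call held without each library. The other tropomyosins *tpm1*, TPM2, *tpm3* and *tpm4a* did not pass in any line, with log2 fold changes in *panx1b*-/- of 0.12, −0.34, −0.04 and −0.23. NEB (ENSDARG00000032630), nebulin, which runs along the thin filament, had 1083 to 1597 CPM in TL and 894.0 to 1258 in *panx1b*-/- (log2 fold change −0.31, adjusted *p*-value 0.302). MYBPC3 (ENSDARG00000011615), the cardiac myosin-binding protein C, had 39.4 to 52.6 CPM in TL and 27.4 to 41.0 in *panx1b*-/- (log2 fold change −0.41, adjusted *p*-value 0.101). MYBPC1 (ENSDARG00000045560), the slow form, had 30.8 to 36.6 CPM in TL and 25.0 to 29.2 in the double knock-out, with a log2 fold change of −0.33 that missed the second cut-off (adjusted *p*-value 0.0454). The fast form *mybpc2b* (ENSDARG00000021265) had 32.7 to 48.7 CPM in TL, 45.0 to 63.8 in *panx1b*-/- and 53.9 to 63.7 in the double knock-out. It was above every TL library in the double knock-out. The log2 fold changes were 0.55 (adjusted *p*-value 0.0508) in *panx1b*-/- and 0.56 (adjusted *p*-value 0.0171) in the double knock-out. The *panx1b*-/- value passed both cut-offs without *panx1b*-/- replicate 3. The double knock-out value missed the second cut-off. It passed both with library size alone, the DESeq2 test, no minimum count or the replicate block, and without TL replicate 3. Of the actinins, *actn3a* had 727.0 to 997.1 CPM in TL and 436.6 to 692.4 in *panx1b*-/- (log2 fold change −0.55, adjusted *p*-value 0.0745). *actn2b* had 29.4 to 32.9 CPM in TL and 22.4 to 24.5 in *panx1b*-/- (log2 fold change −0.37, adjusted *p*-value 0.0297). Both had all *panx1b*-/- libraries below TL, and neither passed both cut-offs.

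The unassigned and non-muscle members gave no further call. The light chain genes *myl10* and *myl13* had log2 fold changes of 0.06 and −0.08 in *panx1b*-/-, and the troponin I genes *tnni4a* and *tnni4b.2* of 0.16 and 0.20. Of the non-muscle genes, *actn4* and ACTN1, actinins of the cytoskeleton, were at 0.12 and 0.24, *myl12.1* at 0.07, and MYL9 at 0.14 for ENSDARG00000008030 and 0.03 for ENSDARG00000038123. Over the 24 fast genes the log2 fold changes in *panx1b*-/- ran from −3.81 to 0.55, and in the double knock-out from −0.67 to 0.56.

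The regulatory genes of the rule held 3 calls in each of *panx1b*-/- and the double knock-out. Both genes named MYLK4, members of the myosin light chain kinase family, were lower in the 2 lines that lack *panx1b*. ENSDARG00000055412 had 23.1, 21.6 and 25.9 CPM in TL, 20.3, 26.1 and 24.2 in *panx1a*-/-, 14.6, 14.9 and 11.2 in *panx1b*-/- and 11.8, 13.2 and 12.3 in the double knock-out. Its log2 fold change was −0.79 (SE 0.13, adjusted *p*-value 0.00317) in *panx1b*-/- and −0.92 (SE 0.11, adjusted *p*-value 0.000342) in the double knock-out, and both calls held without each library. ENSDARG00000091260 had 24.3, 21.9 and 28.3 CPM in TL, 28.5, 31.9 and 33.7 in *panx1a*-/-, 17.5, 15.9 and 15.4 in *panx1b*-/- and 14.3, 13.4 and 11.8 in the double knock-out. The *panx1a*-/- libraries were above TL and the others below, with log2 fold changes of 0.34 (adjusted *p*-value 0.0973), −0.60 (SE 0.12, adjusted *p*-value 0.00777) and −0.92 (SE 0.12, adjusted *p*-value 0.000698). The *panx1b*-/- value lost its call without TL replicate 3 or *panx1b*-/- replicate 2 or 3, with values between −0.69 and −0.50 over the alternatives.

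MYLIP (ENSDARG00000055118), a ubiquitin ligase that targets the LDL receptor in mammals and matched the rule by its letters, had 21.1 to 26.0 CPM in TL, 23.1 to 29.1 in *panx1a*-/-, 14.9 to 16.8 in *panx1b*-/- and 13.8 to 17.7 in the double knock-out. The log2 fold change was −0.61 (SE 0.11, adjusted *p*-value 0.00556) in *panx1b*-/- and −0.62 (SE 0.12, adjusted *p*-value 0.00595) in the double knock-out. The first call was lost without TL replicate 3 or *panx1b*-/- replicate 1, and the second without TL replicate 1 or 3 or double knock-out replicate 1 or 3, with values of −0.73 to −0.54 over the alternatives. The other copy, ENSDARG00000008859, had log2 fold changes of −0.06 and 0.21. The kinase gene *mylk5* (ENSDARG00000075164) had 42.8 to 57.0 CPM in TL and 34.9 to 40.0 in *panx1b*-/- (log2 fold change −0.46, adjusted *p*-value 0.0270). It missed the second cut-off, and passed both with the DESeq2 test, all 12 libraries in one fit or without TL replicate 2. MYLK (ENSDARG00000034801) had 22.3 to 27.1 CPM in TL and 15.4 to 22.1 in *panx1b*-/- (−0.38, adjusted *p*-value 0.111). The other MYLK copy, ENSDARG00000004753, was at −0.36 (adjusted *p*-value 0.155) and passed only without TL replicate 2.

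Whether the effect of losing one gene differed with the other was tested as an interaction in all 12 libraries. Of the members 3 had a higher level in the double knock-out than the sum of the single effects, against 2.56% of all genes, and 0 a lower one, against 2.76%. They were *myhc4* (log2 interaction 4.71, SE 0.33, adjusted *p*-value 2.74e-07), MYL2 ENSDARG00000053424 (1.42, SE 0.24, adjusted *p*-value 0.00173) and *myh7ba* (0.62, SE 0.15, adjusted *p*-value 0.0143). The first 2 held in every alternative tried. *myh7ba* lost its call without TL replicate 1 or 3, *panx1a*-/- replicate 1 or 2, *panx1b*-/- replicate 2 or 3, double knock-out replicate 2 or 3, or with library size alone, with values between 0.54 and 0.70 over the alternatives. At an unadjusted *p*-value under 0.05, 8 of the 79 members had a negative interaction in edgeR, beside 2891 of 24261 genes tested. DESeq2 called 2 of the members in that direction. A test for any difference among the 4 lines called 14 members, against 15.8% of all genes. *tnnt2c* and MYLK3 were among them without a call in a comparison with TL. *tnnt2c* differed from TL in the double knock-out by −1.17 (adjusted *p*-value 0.0151). It passed both cut-offs with the DESeq2 test, no minimum count, the replicate block or all 12 libraries in one fit, and without TL replicate 1.

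The double knock-out was also set against each single knock-out, a comparison added after the values were seen. Against *panx1a*-/-, 1 member was higher and 7 were lower, where 2.58% and 3.76% of all genes were called. Against *panx1b*-/-, 3 were higher and 2 lower, where 3.84% and 5.48% were called. *myhc4* was higher in the double knock-out than in *panx1b*-/- by 4.15 (SE 0.21, adjusted *p*-value 1.63e-07) and than in *panx1a*-/- by 0.88 (SE 0.14, adjusted *p*-value 0.00183) on the log2 scale. MYL2 ENSDARG00000053424 and TPM4 were higher than in *panx1b*-/- by 1.02 and 0.65, and *myl4* and TNNC1 ENSDARG00000037539 were lower, at −0.81 and −0.66. Both MYLK4 genes were lower than in *panx1a*-/-, at −0.92 for ENSDARG00000055412 and −1.26 for ENSDARG00000091260, and so was *tnnt2c* (ENSDARG00000032242), at −1.61 with 0.754 to 1.21 CPM against 1.99 to 3.71. For *tnnc1a* the differences of −0.85 from *panx1a*-/- (adjusted *p*-value 0.0180) and −0.70 from *panx1b*-/- (adjusted *p*-value 0.0231) missed the second cut-off.

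Other muscle genes were counted by list, beside 3.16% of all genes downregulated in *panx1b*-/- and 5.28% in the double knock-out. Of 45 genes of the Z-disc and M-band, 4 of the 44 tested were downregulated in *panx1b*-/-, with a median log2 fold change of −0.16. The largest changes were in *synpo2la* (−1.49), XIRP2 ENSDARG00000091090 (−1.18) and ANKRD1 ENSDARG00000076192 (−1.03). The other copies, XIRP2 ENSDARG00000071113 (−0.305) and ANKRD1 ENSDARG00000075263 (0.44), were not called in *panx1b*-/-. In the double knock-out 4 of 45 were downregulated, with *tcap*, which caps titin at the Z-disc, at −2.09, and 1 was upregulated. Of 21 tested genes of sarcomere assembly, 3 were downregulated in *panx1b*-/-, among them SMYD1 ENSDARG00000091253, a methyltransferase needed for myosin assembly, at −0.73. The other SMYD1 copy, ENSDARG00000009280, with 114.0 to 169.6 CPM in TL, was at −0.01 in *panx1b*-/- and was not called. In the double knock-out 4 of the 21 were downregulated, led by UNC45B, a myosin chaperone, at −1.15. In *panx1a*-/- 1 of the 21 was downregulated, *trim63a* (−0.60), against 2.89% of all genes. It was also called in *panx1b*-/- (−0.73) but not in the double knock-out (0.13). Of 27 genes of calcium handling, 2 were downregulated in *panx1b*-/-, with the calcium pump gene *atp2a2a* at −0.91, and 3 in the double knock-out. In *panx1a*-/- 1 was downregulated, also *atp2a2a* (−0.53), which was not called in the double knock-out (−0.46). Its interaction passed both cut-offs (0.98, adjusted *p*-value 0.0019, edgeR). Of 24 genes of muscle energy metabolism, 5 were downregulated in *panx1b*-/-, led by SLC25A4, the ADP/ATP carrier of muscle mitochondria, at −0.88. In *panx1a*-/- 1 was upregulated, the myoglobin gene *mb* at 1.1, and 2 were downregulated, among them CKMT2 ENSDARG00000069615, a mitochondrial creatine kinase, at −0.73, where 2.29% and 2.89% of all genes were called. The other CKMT2 copy, ENSDARG00000039929, was at −0.09 in *panx1a*-/- and was not called. For the double knock-out edgeR called 0 of the 24, with a median of −0.07, while 4 had an unadjusted *p*-value under 0.05 and DESeq2 called 1. Of all genes tested in that line, 7994 of 24896 had such a *p*-value in edgeR. Among 6 muscle actins, ACTA1 ENSDARG00000055618 was upregulated in *panx1b*-/- (0.72) and downregulated in the double knock-out (−0.78), as was ACTA1 ENSDARG00000036371 in the latter (−0.75).

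Marker genes of the tissues in a whole larva were summed. The summed level of 8 heart markers, all of them members except *nppa* and *nppb*, was 130.0 to 156.5 CPM in TL, 139.7 to 150.6 in *panx1a*-/-, 101.4 to 128.6 in *panx1b*-/- and 125.4 to 149.4 in the double knock-out. The largest part was MYH6 ENSDARG00000079564, at 75.4 to 90.5 CPM in TL. This copy is classed as slow or cardiac, so the sum is not a separate measure of the heart. The median log2 fold change of the 8 heart markers was −0.32 in *panx1b*-/- and −0.42 in the double knock-out. In each of these lines edgeR called 1 of them downregulated, MYL7 in *panx1b*-/- and *nppa* in the double knock-out. *nppa* had 3.10 to 4.55 CPM in TL and 1.90 to 2.03 in the double knock-out (−0.95, adjusted *p*-value 0.00842). The 7 fast muscle markers summed to 19810 to 26360 CPM in TL and 16000 to 25330 in *panx1b*-/-, and the 6 slow muscle markers to 727.0 to 944.4 and 518.5 to 741.9. Both lists also hold members, among them TNNT3 and *smyhc1*. The slow list was meant to hold 1 RYR1 gene, and both copies of that symbol matched. In TL, RYR1 ENSDARG00000023797 had 231.1 to 342.3 CPM and ENSDARG00000011422 had 67.9 to 82.4. They could not be told apart by name, so the slow sum is not a separate measure of slow muscle. The 2 skin markers summed to 7419 to 9031 CPM in TL, 10410 to 14160 in *panx1b*-/- and 9348 to 12370 in the double knock-out, and the 3 liver markers to 1048 to 1445, 1492 to 1779 and 1268 to 1655. Of the skin and liver markers edgeR called 0 in these 2 lines. In *panx1b*-/- 2 skin and 2 liver markers were higher at an unadjusted *p*-value under 0.05, and in the double knock-out 1 and 0, and DESeq2 called 1 skin marker in each line and 0 liver markers. The 4 neuron markers summed to 467.8 to 755.7 CPM in TL, 441.1 to 732.6 in *panx1b*-/- and 601.5 to 782.1 in the double knock-out, and the 7 smooth muscle markers to 303.6 to 420.5, 306.6 to 349.6 and 302.3 to 331.5, all with overlap. The 2 exocrine pancreas markers summed to 808.2 to 1090 CPM in TL, 1027 to 1638 in *panx1b*-/- and 948.4 to 1472 in the double knock-out. The 4 lens markers took 187.3 to 218.5, 133.3 to 232.7 and 252.0 to 295.1 CPM, and the 2 blood markers 6.62 to 9.50, 9.76 to 12.01 and 8.34 to 9.10. Of the pancreas, lens and blood markers, *ela2* (log2 fold change 0.85) and *hbae1.1* (1.78) were called upregulated in *panx1b*-/-. In the double knock-out *crygm2d1* (0.61) was. The level of *hbae1.1* was low, at 0.235 to 0.495 CPM in TL and 0.828 to 1.64 in *panx1b*-/-. Of the markers of pancreas, lens and blood, edgeR called 0 lower in *panx1b*-/- or the double knock-out. DESeq2 called 1 lens marker lower in *panx1b*-/-. In edgeR 2 lens markers were lower there at an unadjusted *p*-value under 0.05, among them CRYAA (−1.11, adjusted *p*-value 0.0234). None of these markers was at 0 in any library. The part of these tissue shares in the muscle gene values was not tested.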

How the data were processed

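RNA-seq counts were analysed for 12 libraries of whole 6 dpf larvae, 3 in each of 4 lines. The authors deposited raw counts per Ensembl gene, unnormalized and not pooled. The submitters' processing notes name bcl2fastq 2.17, FastQC 0.11.2, Trim Galore 0.4.4, TopHat2 2.0.11, HTSeq 0.6.1p2 and danRer11, while the paper describes RSEM for its own test. The strand setting and the handling of reads shared by copies are not given in the sources used here. Symbols were found for 28223 of 31261 identifiers (90.3%).

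Counts were fitted in R 4.3.3 with edgeR 4.0.16 (TMM, glmQLFit, glmQLFTest) on all genes counted at least 1 time in each library fitted. A fit held the lines being compared, and all 12 libraries for the interaction and the test of any difference. The cut-offs were those of the paper. The standard error is the fold change divided by the root of F. CPM were TMM-normalized over 12 libraries and not per gene length, so levels are compared between lines only.

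The members, their classes and the other lists were chosen with earlier results of these data known. Named were the 4 members with the highest mean CPM of each class, every member past both cut-offs (the 10 largest changes where more passed), and other identifiers of those symbols. Other muscle lists have at most 3 genes named. *myhz1.2*, *myhz1.3*, *myhz2*, *tnnt2c*, *mybpc2b*, *actn3a*, *actn2b*, *myh7bb*, TNNI1 and MYLK3 were named after their values were seen. Libraries of a line differed by more than sampling noise (chi-square per degree of freedom 2.84 to 24.6) and all were kept. The procedure was tested on simulated data for wrong signs, bias and false calls. The share of changed genes that it called was recorded without a pass mark. A first simulation had stopped at a mark on that share for the interaction, and its dispersions and marks were then changed. Alternatives were DESeq2 1.42.0, its size factors, library size alone, TMM without the members, no minimum, filterByExpr, at least 10 counts, the adjusted *p*-value alone, all 12 libraries in one fit, a replicate block and each library left out. Figures were drawn with matplotlib 3.10.9.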

Additional observations from a re-analysis of the deposited data

Results flagged for a closer look

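In 3 members the effect of losing *panx1b* differed between larvae with and without *panx1a*, by the interaction test in edgeR. All 3 were positive, against 2.56% of all genes with a positive call and 2.76% with a negative one. The log2 interaction was 4.71 for *myhc4* (ENSDARG00000035438), 1.42 for MYL2 (ENSDARG00000053424) and 0.62 for *myh7ba* (ENSDARG00000076075). With 3 libraries per line, single libraries were not tested for standing apart.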

How the results depend on the processing

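The 35 member values past both cut-offs were recomputed in 562 alternative fits, of which 499 kept the call, 63 lost it and 0 turned the direction, and 19 values kept the call in every alternative. The count of downregulated members in *panx1a*-/- larvae rose from 1 to 2 with the DESeq2 test, no minimum count, the adjusted *p*-value alone or all 12 libraries in one fit, and *myl4* was the gene added. In the double knock-out the 7 downregulated members became 16 with the adjusted *p*-value alone, and 1 upregulated member, *mybpc2b*, appeared with library size alone, the DESeq2 test, no minimum count, the adjusted *p*-value alone and the replicate block. Negative interactions rose from 0 to 1 with DESeq2's size factors, no minimum count or filterByExpr, to 2 with library size alone or the DESeq2 test and to 3 with the adjusted *p*-value alone. The 14 members that differed among the 4 lines became 31 with the adjusted *p*-value alone. With each library left out in turn, downregulated members numbered 0 to 3 in *panx1a*-/-, 4 to 15 in *panx1b*-/- and 4 to 15 in the double knock-out, and upregulated members 0 to 0, 0 to 1 and 0 to 1. Positive interactions numbered 2 to 4, negative ones 0 to 1, and members that differed among the lines 11 to 19. The cause was not tested. Same-numbered libraries correlated at −0.038 to 0.026 between TL and *panx1a*-/-, −0.026 to 0.255 for *panx1b*-/- and −0.116 to 0.161 for the double knock-out. TL replicate 2 and replicate 3 of the other line reached 0.228 for *panx1b*-/- and 0.22 for the double knock-out. With 3 libraries per line, these values cannot settle whether the numbers pair the samples. With the replicate block, 1, 11 and 9 members were downregulated in *panx1a*-/-, *panx1b*-/- and the double knock-out, 3 had a positive interaction and 14 differed among the lines. Gene length and GC content were not examined, and members of few counts such as *tnnt2c* (17 to 79 counts) are measured less precisely.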
